A study of Mus musculus with 3 samples.

Results

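Cyclins, cyclin-dependent kinases (Cdks), mitotic kinases and kinesin motors were followed in palatal medial edge epithelium of the mouse, the cell layer at the tips of the palatal shelves that forms the midline seam. Members were chosen by gene symbol: cyclins A, B, D and E, Cdks and symbols that begin with Cdk and a digit, Cdc20, Cdc25, Cks, Aurora, Bub, Plk, Nek, Kif, Cenp and Smc genes, together with Ect2, Top2a and Mki67. The choice took in 98 probe sets for 75 of the 8251 genes on the array, and 20 of the 75 genes had several probe sets. Because the choice went by name, it also holds genes with little or no known part in division, among them transport kinesins, transcriptional Cdks and proteins that only bind a Cdk.

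Tissue came from CF-1 mouse embryos at embryonic day 13.5, and each of the 3 time points had 1 array. The 0 h sample was unfused epithelium without culture, the 12 h sample was fused epithelium from shelves held in contact in culture for 12 h, and the 24 h sample, after 24 h of contact, was labelled as undergoing epithelial-mesenchymal transformation. The epithelium was freed with Dispase II in all samples, and the labels do not give how many embryos went into each. The number of arrays limits the precision, no ratio below has a test or a replicate error, and contact cannot be told apart from culture, because the 0 h tissue was not cultured.

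As background, Cdks drive the cell cycle when bound to cyclins: D and E cyclins carry cells through G1 into S phase, and A and B cyclins through S phase and G2 into mitosis. Cdc25 phosphatases switch Cdks on, Aurora, Polo and Nek kinases build the spindle and its poles, kinesins move chromosomes and microtubules, and Cdc20 triggers anaphase. Palatal seam cells are known to leave the cell cycle before the seam breaks up, while the mesenchyme beneath them goes on dividing.

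Upstream sequences of the 3 members with the highest and the 3 with the lowest measured ratio for 24 h over 0 h are shown, to set members at opposite ends of the range beside each other. They were picked after the values were seen. They come from RefSeq (build GRCm38.p6), run from 250 bases before to 50 bases after the annotated gene start, and are written 5′ to 3′ on the gene's strand. Capitals mark CCAAT, the letters of the NF-Y box, and TTTGAA or TTCGAA, the letters of the cell cycle genes homology region, on either strand. Both elements are known from promoters of late cell cycle genes.
Nek7 (chr1:138619708-138620007, minus strand): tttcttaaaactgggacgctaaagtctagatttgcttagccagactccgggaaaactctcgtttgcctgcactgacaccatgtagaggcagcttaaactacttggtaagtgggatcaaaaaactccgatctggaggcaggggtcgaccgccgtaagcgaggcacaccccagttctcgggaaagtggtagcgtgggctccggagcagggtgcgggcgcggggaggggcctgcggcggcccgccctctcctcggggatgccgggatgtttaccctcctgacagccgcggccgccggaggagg
Nek2 (chr1:191821223-191821522, plus strand): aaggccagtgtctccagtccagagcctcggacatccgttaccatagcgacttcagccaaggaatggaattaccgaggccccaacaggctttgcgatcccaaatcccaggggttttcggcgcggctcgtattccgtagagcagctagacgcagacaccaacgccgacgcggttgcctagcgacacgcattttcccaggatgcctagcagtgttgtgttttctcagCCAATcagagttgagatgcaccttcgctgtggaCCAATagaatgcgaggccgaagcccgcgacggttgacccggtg
Ect2 (chr3:27153829-27154128, minus strand): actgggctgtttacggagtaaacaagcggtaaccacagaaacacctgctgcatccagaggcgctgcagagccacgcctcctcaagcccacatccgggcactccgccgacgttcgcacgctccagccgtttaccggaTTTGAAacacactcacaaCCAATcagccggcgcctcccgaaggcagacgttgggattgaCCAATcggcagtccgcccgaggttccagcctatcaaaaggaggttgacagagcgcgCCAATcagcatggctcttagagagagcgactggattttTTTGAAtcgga
Cks1b (chr3:89418242-89418541, minus strand): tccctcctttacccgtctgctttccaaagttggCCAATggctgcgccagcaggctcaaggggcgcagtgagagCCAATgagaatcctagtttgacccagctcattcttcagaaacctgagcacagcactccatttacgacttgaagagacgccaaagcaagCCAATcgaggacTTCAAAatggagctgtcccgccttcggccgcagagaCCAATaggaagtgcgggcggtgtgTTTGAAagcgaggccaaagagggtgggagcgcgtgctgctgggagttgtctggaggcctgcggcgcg
Cenpb (chr2:131180018-131180317, minus strand): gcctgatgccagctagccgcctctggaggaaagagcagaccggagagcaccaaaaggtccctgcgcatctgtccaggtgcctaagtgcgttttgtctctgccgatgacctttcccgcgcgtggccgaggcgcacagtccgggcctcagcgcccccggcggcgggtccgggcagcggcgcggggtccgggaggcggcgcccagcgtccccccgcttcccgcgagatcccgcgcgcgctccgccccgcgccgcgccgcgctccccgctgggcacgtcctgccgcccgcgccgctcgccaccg
Kif11 (chr19:37376132-37376431, plus strand): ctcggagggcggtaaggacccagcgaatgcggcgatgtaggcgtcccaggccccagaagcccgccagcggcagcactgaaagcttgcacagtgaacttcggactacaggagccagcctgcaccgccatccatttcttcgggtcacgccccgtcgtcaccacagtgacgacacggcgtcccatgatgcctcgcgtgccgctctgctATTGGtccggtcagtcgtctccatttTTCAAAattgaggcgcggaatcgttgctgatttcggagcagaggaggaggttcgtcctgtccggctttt

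Ect2 held 3 CCAAT and 2 TTTGAA matches, and Nek2 held 2 CCAAT matches, at bases 225 and 258 of its window. The lower-signal Cks1b held 4 CCAAT matches and 2 matches to TTTGAA or its reverse complement TTCAAA, and Kif11 held ATTGG, the reverse complement of CCAAT, at base 206 and TTCAAA at base 232. Nek7 and Cenpb held neither set of letters in this window. In all, 63 of the 75 members matched the table, with 76 promoters, since 12 members have several starts whose windows can overlap. CCAAT stood in 46 of the 76, or 60.5%, and in 37.4% of all 32851 promoters of the same length. TTTGAA stood in 30.3% of the members' promoters and 17.9% of all, and TTCGAA in 3.95% and 1.56%. GGGCGG, the Sp1 box, stood in 76.3% and 35.7%. Spellings of the E2F site were searched on both strands: TTGGCGC was in 9.21% of the members' promoters and 2.45% of all, TTCCCGC in 10.5% and 4.60%, and TTCGCGC in 2.63% and 1.59%. ATTGG and TTGGCGC can share letters. CCAAT was in 6 of 8 promoters of members that gained 2-fold or more between 0 h and 24 h, and in 7 of 15 of those that lost as much. These matches are descriptions of letters and were not tested.

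Signals are the deposited intensities after scaling each array to a common 2% trimmed mean (multiplied by 0.676, 1.09 and 1.36 in order of time). A scaled signal of 13.5, the pooled 40th percentile, served as the floor, and where only 1 of the compared arrays exceeded it, the ratio is a limit, given as at least so many fold. With this scaling all genes together had a median log2 ratio of -0.08 for 24 h over 0 h, -0.21 for 12 h over 0 h and 0.17 for 24 h over 12 h, against -0.98, -0.83 and -0.12 with values as deposited. Of the 75 members, 52 lay above the floor on all 3 arrays, 13 on 1 or more but not all, and 10 on none. The 10 at the floor throughout were Ccnb1ip1, Ccne2, Cdk5r2, Cenpe, Cenpx, Kif1a, Kif5a, Kif5c, Kif9 and Nek4. Probe sets of the same gene gave log2 ratios that scattered about their gene's mean with SDs of 1.07 (24 h over 0 h, from 748 genes), 1.24 (12 h over 0 h, from 672) and 0.82 (24 h over 12 h, from 687). A 2-fold difference is thus within 1 SD of that scatter for 24 h over 0 h and for 12 h over 0 h.

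The arrays also differed in RNA quality controls and in markers of other cells. The 3' to 5' signal ratio of the Gapdh controls was 0.833, 16.2 and 8.16 at 0, 12 and 24 h, and that of the Actb controls 1.03, 10.3 and 2.97. Of 15 epithelial markers 3, 6 and 3 were at the floor at 0, 12 and 24 h, and the basal keratins Krt5, Krt14 and Krt15 were at the floor on all 3 arrays. The 15 markers had a summed scaled signal of 1017, 1537 and 1930 at those times. The sum at 12 h was carried by Dsc2, Epcam, Pkp1 and Trp63, and the list's median log2 ratio was 1.06 for 24 h over 0 h and -0.31 for 12 h over 0 h. The 14 palate mesenchyme markers summed to 5408, 9158 and 9707, with 0, 2 and 1 at the floor. That list did not move together: 4 were 2-fold or more higher and 4 lower for 24 h over 0 h (median log2 ratio 0.13), and 6 and 6 for 12 h over 0 h (median -0.16), with Col1a2 higher in both and Mfap2 and Msx1 lower in both. The 5 red blood cell markers summed to 6458, 1575 and 1496, with 0, 1 and 0 at the floor. The 11 leukocyte markers summed to 294, 326 and 651, with 5 at the floor each time. The higher sum at 24 h was carried by Cd14 and Laptm5, and the list's median log2 ratio was 0.13 for 24 h over 0 h. Sums over 7 neural markers were 741.5, 495 and 436 (1, 3 and 4 at the floor), over 7 muscle markers 543, 319.7 and 272.5 (1, 2 and 2), and over 7 endothelial markers 279.7, 531 and 553 (2, 0 and 1). The part of these differences in the ratios below was not tested. Fewer dividing cells and less RNA per cell cannot be told apart in these bulk samples.

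For 24 h over 0 h, which set transforming seam against unfused tissue, 7 of the 64 members with a ratio lay 2-fold or more higher and 17 as far lower. Over all genes with a ratio, 14.5% lay 2-fold or more higher and 17.7% as far lower, beside 10.9% and 26.6% of the members. The members' median log2 ratio was -0.37, which lay 0.29 below that of all genes (a difference of medians of -0.29). The split with values as deposited was 5 higher and 40 lower, beside 4.5% and 49.35% of all genes. The 7 higher members were Nek7, Nek2, Ect2, Plk4, Kif23, Ccna1 and Kif3a. The 17 lower members were Cdk2, Cdk5, Cdk7, Cdk14, Cdk2ap2, Cks1b, Cks2, Bub1, Kif2a, Kif2c, Kif5b, Kif11, Cenpb, Cenpc1, Cenpv, Smc4 and Smc6. Beyond 2 SDs of the scatter between probe sets, a 4.40-fold difference, lay Nek7, Nek2, Ect2 and Plk4 on the high side and Cks1b and Cenpb on the low side, 4 and 2 of 64 members, where 3.27% and 3.05% of all genes lay. The plot of ratios by role shows both tails.

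**Figure D1:**
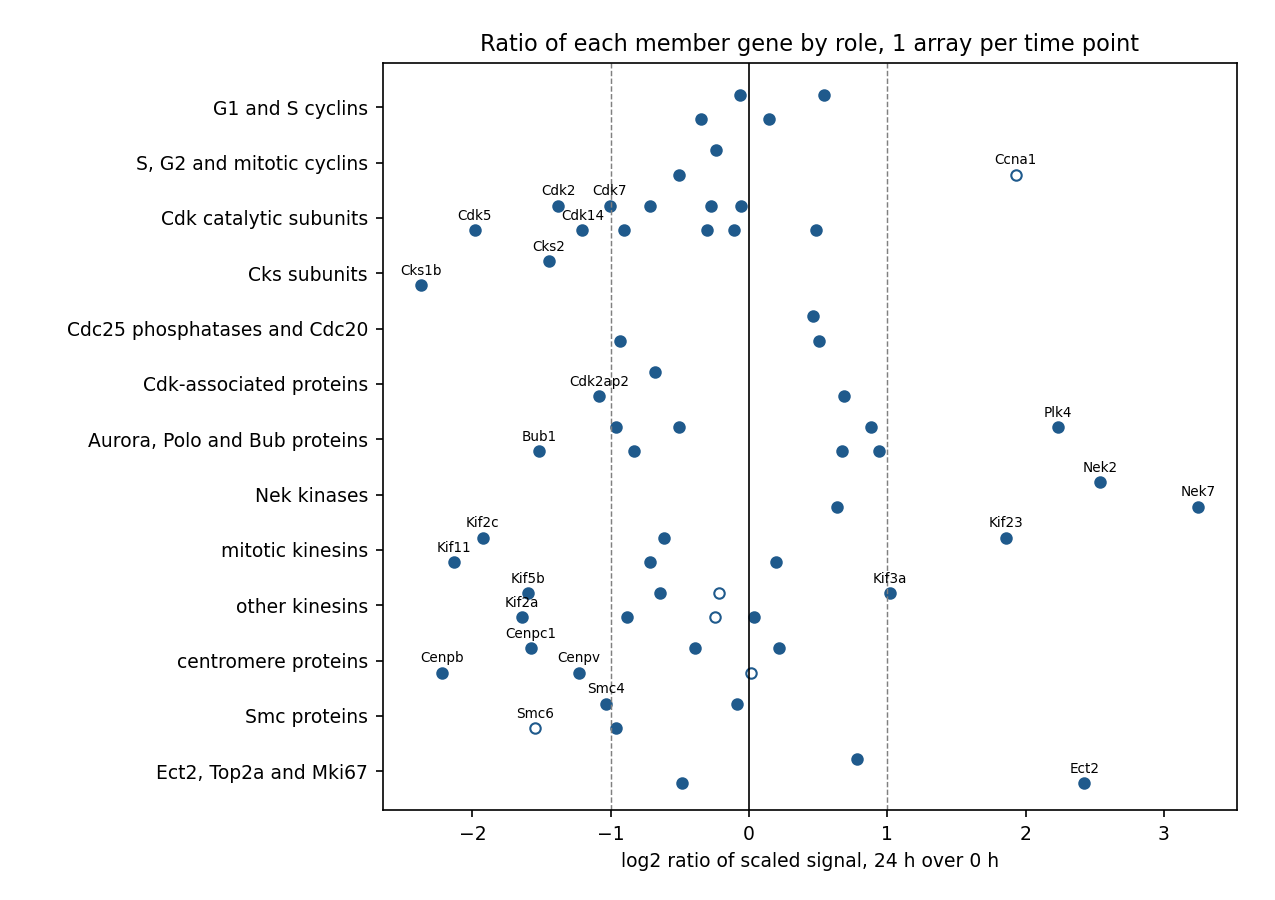
Log2 ratio of scaled signal for 24 h over 0 h (horizontal axis) of the 64 members with a ratio, 1 point per gene, grouped by role on the vertical axis. Open points are bounds with 1 array at the floor, dashed lines mark 2-fold, and named genes lie past it: 7 to the right, led by Nek7 at 3.25, and 17 to the left, led by Cks1b at -2.37.

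Of 4 measured G1 and S phase cyclins 3 were 2-fold or more lower at 12 h than at 0 h, beside 27.3% of all genes. The counts were 2 lower and 1 higher after median centring, beside 18.39% and 26.17% of all genes. After quantile normalization they were 3 and 1, beside 20.94% and 21.91%. At 24 h all 4 were within 2-fold of their unfused level, with a median log2 ratio of 0.04. That median was -0.86 with values as deposited, and 2 G1 and S cyclins were then 2-fold or more lower, beside 49.35% of all genes. Ccnd3, a D cyclin that activates Cdk4 and Cdk6, had scaled signals of 366, 93.6 and 405 at 0, 12 and 24 h. Ccne1, the E cyclin that activates Cdk2 at the start of S phase, had 102, 15.9 and 97.5, so its 12 h signal lay just above the floor. Ccnd1, the growth factor responsive D cyclin, had 149, 55.8 and 117. Ccnd2 ran the other way, with 27.1, 45.6 and 39.6, and stayed under 2-fold throughout. For 12 h over 0 h Ccne1 was 6.40-fold, Ccnd3 3.91-fold and Ccnd1 2.66-fold lower, and for 24 h over 12 h they were 6.12-fold, 4.33-fold and 2.09-fold higher. These comparisons share the 12 h array. The lower-signal probe set of Ccnd1 gave a log2 ratio of -0.51 for 12 h over 0 h and of -0.43 for 24 h over 12 h, so it did not show the higher signal at 24 h. The log2 ratios of the 4 cyclins for 24 h over 0 h ran between -0.35 and 0.55.

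Cyclins of S phase and mitosis had no common course. Ccnb2, a B cyclin that drives entry into mitosis with Cdk1, had 382, 319 and 323 at 0, 12 and 24 h, close together on all 3 arrays. Ccna2, the A cyclin of dividing somatic cells, had 267, 106 and 188, and was 2.52-fold lower at 12 h than at 0 h. Ccna1, the A cyclin of the germ line, was below the floor at 0 h with 8.39 and had 33.7 at 12 h and 51.5 at 24 h. Its 24 h signal was at least 3.81-fold above that of 0 h, a limit that rests on the floor.

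Cdk catalytic subunits held 4 of 11 members past 2-fold on the low side and 0 on the high side for 24 h over 0 h, beside 17.7% and 14.5% of all genes. The number on the low side was 10 with values as deposited and 3 after median centring, beside 49.35% and 14.17% of all genes. Cdk2, the partner of E and A cyclins, had 124, 63.0 and 47.9 at 0, 12 and 24 h. It was 2.60-fold lower at 24 h than at 0 h by its brightest probe set. Its second set was below the floor at 0, 12 and 24 h and gave no ratio. Averaging that set in gave a log2 ratio of -0.69, a shrinkage by construction. Cdk5, a kinase best known from neurons, had 124, 1.96 and 31.4, and was 3.96-fold lower at 24 h than at 0 h. Cdk14, a kinase activated by cyclin Y, had 46.3, 34.7 and 20.1, 2.31-fold lower at 24 h than at 0 h, whereas its other probe set gave 0.04 on the log2 scale. Cdk7, which activates other Cdks and acts in the general transcription factor TFIIH, had 29.7, 12.2 and 14.8, 2.01-fold lower at 24 h than at 0 h. Its 12 h signal lay below the floor and its 24 h signal just above it.

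Cdk4 had the widest range of the Cdks above the floor on all 3 arrays. Cdk4, the partner of D cyclins, had scaled signals of 973, 128 and 520 at 0, 12 and 24 h. It was 7.57-fold lower at 12 h than at 0 h, its 24 h signal stood 4.05-fold above that of 12 h, and its other probe set gave log2 bounds of -2.75 and 2.67. The 2 sets gave log2 ratios of -0.90 and -0.08 for 24 h over 0 h. Cdk16 had 136, 42.0 and 110, and Cdk9, a kinase of transcription elongation, 110, 37.1 and 91.4. Both were low at 12 h, by 3.24-fold and 2.98-fold against 0 h. Cdk1, the mitotic kinase itself, had 239, 120 and 229, with a 12 h signal just short of 2-fold lower than at 0 h. Cdk8, of the Mediator complex, was instead highest at 12 h, with 106, 169 and 64.5. Cdk18, with 37.7, 27.7 and 35.0, and Cdk11b, with 83.6, 97.2 and 116.9, stayed within 2-fold on all arrays by their brightest probe set, and other probe sets of Cdk11b gave log2 bounds of -2.22 and 0.66 for 24 h over 0 h.

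**Figure D2:**
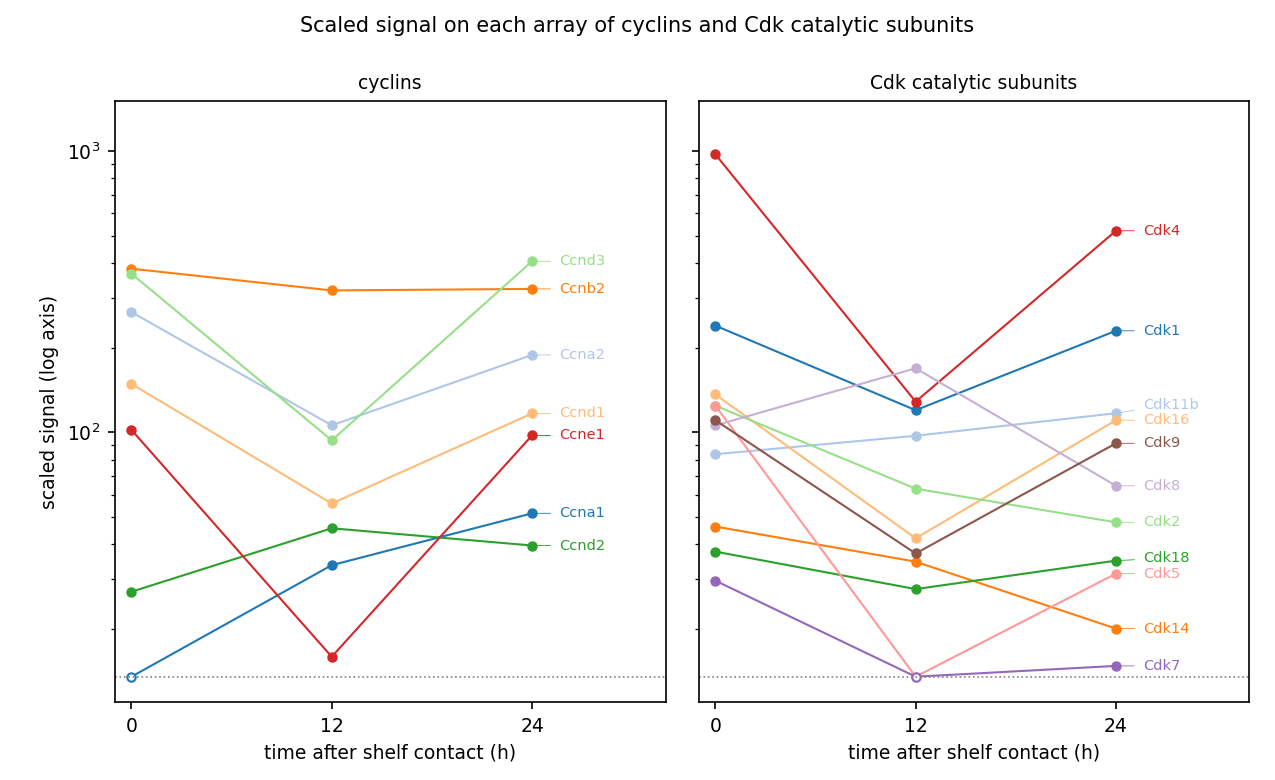
Scaled signal (vertical log axis) against hours after shelf contact for the 7 cyclins and 11 Cdk catalytic subunits above the floor on at least 1 array, 1 array per time point. Open points are at the floor of 13.5 (dotted line), and Ccnd3, Ccne1 and Cdk4 dip at 12 h whereas Ccnb2 stays nearly level.

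Both Cks subunits, small proteins that bind Cdks and steer them to substrates, were lower at 24 h. Cks1b, also needed for breakdown of the inhibitor p27, had 502, 217 and 97.1 at 0, 12 and 24 h, and was 5.17-fold lower at 24 h than at 0 h. Cks2, its close relative, had 390.4, 374 and 143, so its signals at 0 and 12 h were alike and the lower one was at 24 h, 2.73-fold below 0 h. Cks1b and Cks2 also passed 2-fold in that direction under each other scaling tried. Of Cdc20 and the Cdc25 phosphatases, Cdc20, the activator of the anaphase promoting complex, had 257, 158 and 366, and the phosphatase Cdc25a had 130.4, 70.8 and 179.5. Both were low at 12 h, and their 24 h signals were 2.32-fold and 2.54-fold above those of 12 h. Cdc25c, a phosphatase of mitotic entry, had 69.4, 33.7 and 36.5, with log2 ratios for 12 h over 0 h of -1.04 and -1.20 from its 2 probe sets.

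Proteins that bind a Cdk without being kinases had 3 members with a ratio for 24 h over 0 h. Cdk2ap2, a small Cdk2-binding protein, had 58.4, 9.27 and 27.5 and was 2.12-fold lower at 24 h than at 0 h. Its relative Cdk2ap1 had 227, 264.5 and 366. Cdk5rap3, a Cdk5-binding protein, had 109.7, 24.9 and 68.5, and its 2 probe sets gave log2 ratios of -0.68 and 0.69 for 24 h over 0 h. Cdk5r1, an activator of Cdk5, exceeded the floor only at 12 h, at 21.2.

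The 4 highest ratios for 24 h over 0 h belonged to the kinases Nek7, Nek2 and Plk4 and to Ect2, and Kif23 followed after the bound of Ccna1. Nek7, a kinase of spindle poles that also takes part in inflammasome activation, had 103.5, 1215 and 982 at 0, 12 and 24 h. Its 24 h signal was 9.49-fold that of 0 h, and both cultured samples lay far above the unfused one. Nek2, the kinase that parts the centrosomes before mitosis, had 51.6, 202 and 299.6, 5.81-fold higher at 24 h than at 0 h. Plk4, which starts centriole duplication, had 76.5, 401.5 and 359, 4.70-fold higher at 24 h than at 0 h. Ect2, a protein needed for cytokinesis, had 68.7, 513 and 369, 5.37-fold higher at 24 h than at 0 h. Kif23, a kinesin of the central spindle that works with Ect2 in cytokinesis, had 67.4, 268 and 244, 3.62-fold higher at 24 h than at 0 h. All 5 have 1 probe set each, had passed 2-fold by 12 h already, and moved by less than 2-fold between 12 h and 24 h. Under each other scaling tried Nek7, Nek2, Plk4 and Ect2 remained past 2-fold at 24 h over 0 h. Kif23 did so too except with values as deposited, where its log2 ratio was 0.85. The settings that changed floor, probe sets or symbols left these 5 ratios as they were, so they add no check on them.

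**Figure D3:**
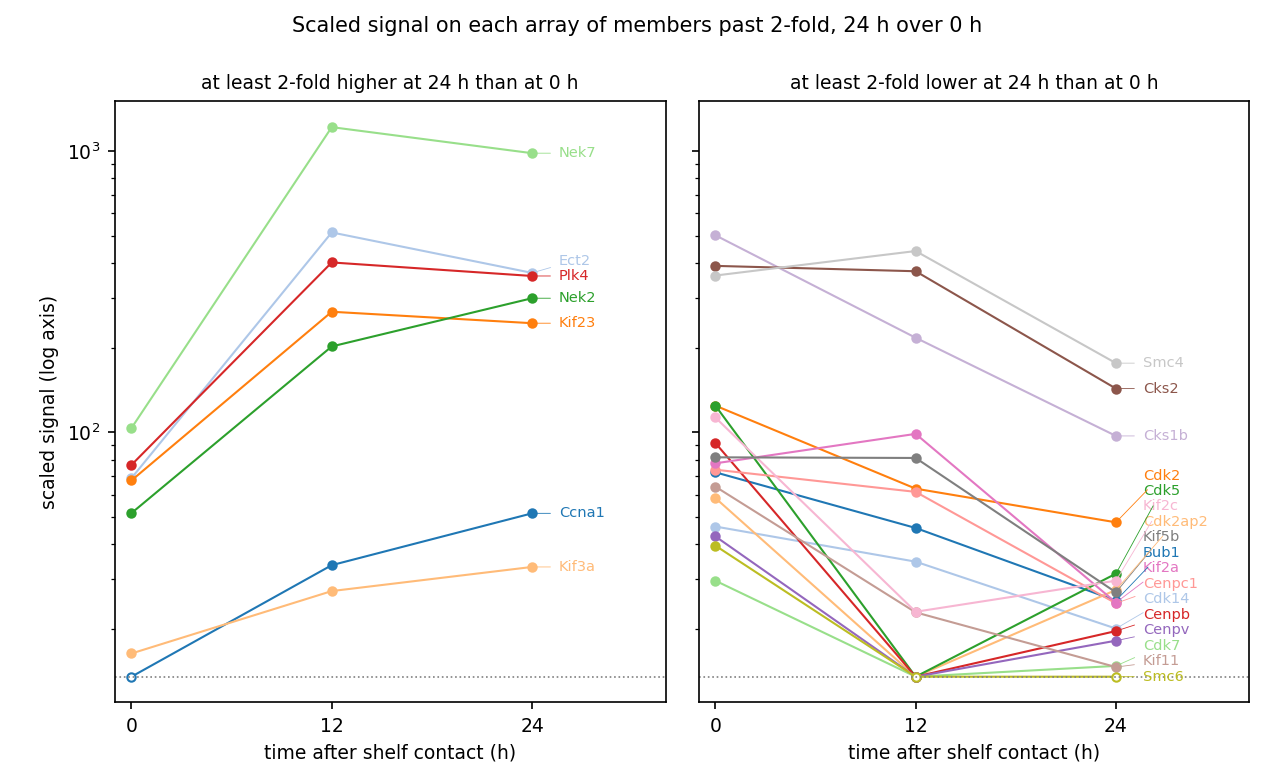
Scaled signal (vertical log axis) against hours after shelf contact for the 7 members past 2-fold on the high side (left) and the 17 on the low side (right) for 24 h over 0 h, 1 array per time point. On the left the signals of Nek7, Ect2, Plk4, Kif23 and Nek2 at 12 h are already far above those at 0 h, and on the right several genes reach the floor of 13.5 (dotted line, open points) at 12 h.

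Other mitotic kinases and checkpoint proteins differed less. Aurka, the Aurora kinase of spindle poles, had 75.5, 62.7 and 120.5 at 0, 12 and 24 h, while Aurkb, the Aurora kinase of centromeres and the midzone, had 88.2, 65.9 and 45.4. On the log2 scale 24 h over 0 h was 0.67 for Aurka and -0.96 for Aurkb. Bub1, a spindle checkpoint kinase, had 72.1, 45.7 and 25.2, 2.86-fold lower at 24 h than at 0 h, and Bub3, its partner, 358, 163.5 and 251.5. A dimmer probe set of Bub1 was above the floor only at 12 h, at 36.4. Plk3, a stress-responsive Polo kinase, had 643, 744 and 1236, and Plk2 413, 246 and 232.5. Nek6 had 84.9, 76.6 and 132.

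Plk1, the main Polo kinase of mitosis, had probe sets that gave different directions. Its brightest probe set had 85.2, 170.3 and 157 at 0, 12 and 24 h, a second 134, 47.6 and 129.9, and the dimmest 57.7, 10.7 and 12.7. On the log2 scale 24 h over 0 h was 0.88, -0.05 and -2.09 in the same order, the last a bound. The suffixes of all 3 mark possible cross-hybridization.

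Mitotic kinesins held both directions. Kif11, the motor that pushes spindle poles apart, had 64.1, 22.9 and 14.6 at 0, 12 and 24 h, and was 4.38-fold lower at 24 h than at 0 h with a 24 h signal close to the floor. Kif2c, a microtubule depolymerase of centromeres, had 112.9, 23.02 and 29.69, 3.80-fold lower at 24 h than at 0 h. Kif4, a motor on chromosome arms, had 50.7, 13.1 and 30.9 and lay below the floor at 12 h. Kif22, another chromosome arm motor, had 498, 689 and 326. Kif20a, a motor of cytokinesis, had 183, 147 and 209.6 by its brightest probe set and 78.0, 21.3 and 22.6 by its other one, for log2 ratios of 0.20 and -1.79 for 24 h over 0 h. The higher signal of Kif23 in the cultured samples was not seen in Kif11 or Kif2c.

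Among 12 kinesins not counted as mitotic, 8 had a ratio for 24 h over 0 h. Of these 1 lay past 2-fold on the high side and 2 on the low side, beside 14.5% and 17.7% of all genes. Kif2a, a depolymerase with roles in neurons and at spindle poles, had 77.6, 98.7 and 24.8, and Kif5b, the heavy chain of conventional kinesin, 81.5, 81.0 and 27.0. Both were within 2-fold of 0 h at 12 h, and they were 3.13-fold and 3.02-fold lower at 24 h than at 0 h. Kif3a, a motor subunit needed to build cilia, had 16.4, 27.3 and 33.2 and was 2.03-fold higher at 24 h than at 0 h, on signals near the floor. Its log2 ratio was 0.02 with values as deposited. Kif1c had 30.2, 40.7 and 30.9, and Kif16b 23.3, 43.1 and 14.9. Kif3b and Kif1b exceeded the floor only at 0 h, at 15.8 and 16.0, and Kif3c had 30.2, 9.71 and 16.4.

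Centromere and chromosome structure proteins had 5 of 10 members with a ratio past 2-fold on the low side and 0 on the high side for 24 h over 0 h, beside 17.7% and 14.5% of all genes. These were 3 centromere and 2 Smc proteins, against 4 and 4 with values as deposited and 3 and 1 after median centring. Over all genes 49.35% and 14.17% lay that far lower under those 2 settings. Cenpb, which binds satellite DNA of centromeres, had 91.6, 2.18 and 19.7, 4.66-fold lower at 24 h than at 0 h, with a 12 h signal below the floor. Cenpc1, a foundation of the kinetochore, had 73.6, 61.4 and 24.7, 2.98-fold lower at 24 h than at 0 h. Cenpv had 42.7, 13.5 and 18.2, with 12 h at the floor and 24 h 2.35-fold lower than 0 h. Cenpa, the histone that marks centromeres, had 74.9, 103 and 87.2, within 2-fold on all arrays. Cenpk, a kinetochore subunit, was highest at 12 h, with 57.1, 114 and 43.5. Cenpl exceeded the floor only at 24 h, at 13.7.

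Smc proteins are the ring-shaped ATPases of condensin, cohesin and the Smc5/6 complex. Smc4 of condensin had 361, 441 and 176, 2.05-fold lower at 24 h than at 0 h, whereas its partner Smc2 had 123, 179.7 and 116. Smc3 of cohesin had 90.9, 69.6 and 46.6, just short of 2-fold at 1.95-fold lower at 24 h than at 0 h. Smc6 had 39.6 at 0 h and lay below the floor at 12 h and 24 h, with 10.6 and 5.02, so it was at least 2.92-fold lower at both. Top2a, the topoisomerase that untangles chromosomes, had 216, 294 and 372, and Mki67, the Ki-67 antigen of cycling cells, 215, 310.0 and 153.6. The log2 ratios of these 2 proliferation markers for 24 h over 0 h were 0.78 and -0.48, and a dimmer probe set of Mki67 gave -0.03.

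For 12 h over 0 h, which asked what differed once shelves had adhered, 6 of 64 members with a ratio lay 2-fold or more higher and 21 as far lower. Over all genes 17.7% lay 2-fold or more higher and 27.3% as far lower, beside 9.38% and 32.8% of members, and the difference of medians was -0.08. Median centring gave 12 higher and 14 lower members, beside 26.17% and 18.39% of all genes. Quantile normalization gave 11 and 18, beside 21.91% and 20.94%. The 6 higher members were Nek7, Ect2, Plk4, Kif23, Nek2 and Ccna1, at 11.7-fold, 7.47-fold, 5.25-fold, 3.98-fold, 3.91-fold and at least 2.49-fold. Members lower at 12 h were led by Cdk5, at least 9.20-fold, Cdk4, Cenpb, at least 6.77-fold, Ccne1, Kif2c, 4.90-fold, and Cdk5rap3, 4.41-fold. Of the 21, 8 were bounds, with the 12 h array at the floor.

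For 24 h over 12 h, both cultured, 12 of 62 members with a ratio lay 2-fold or more higher and 11 as far lower. Over all genes 18.8% lay 2-fold or more higher and 12.0% as far lower, beside 19.4% and 17.7% of members, and the difference of medians was -0.05. With values as deposited 6 of 59 were higher and 13 lower, beside 12.02% and 18.47% of all genes. After median centring it was 8 and 13 of 61, beside 12.96% and 17.83%. Higher members were Ccnd1, Ccnd3, Ccne1, Cdc20, Cdc25a, Cdk4, Cdk5, Cdk9, Cdk16, Cdk2ap2, Cdk5rap3 and Kif4. Lower members were Cks1b, Cks2, Cdk8, Kif2a, Kif5b, Kif16b, Kif22, Cenpc1, Cenpk, Smc4 and Mki67. Kif2a had the lowest ratio, at 3.98-fold lower, followed by Kif5b and, at 2.89-fold lower, Kif16b.

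**Figure D4:**
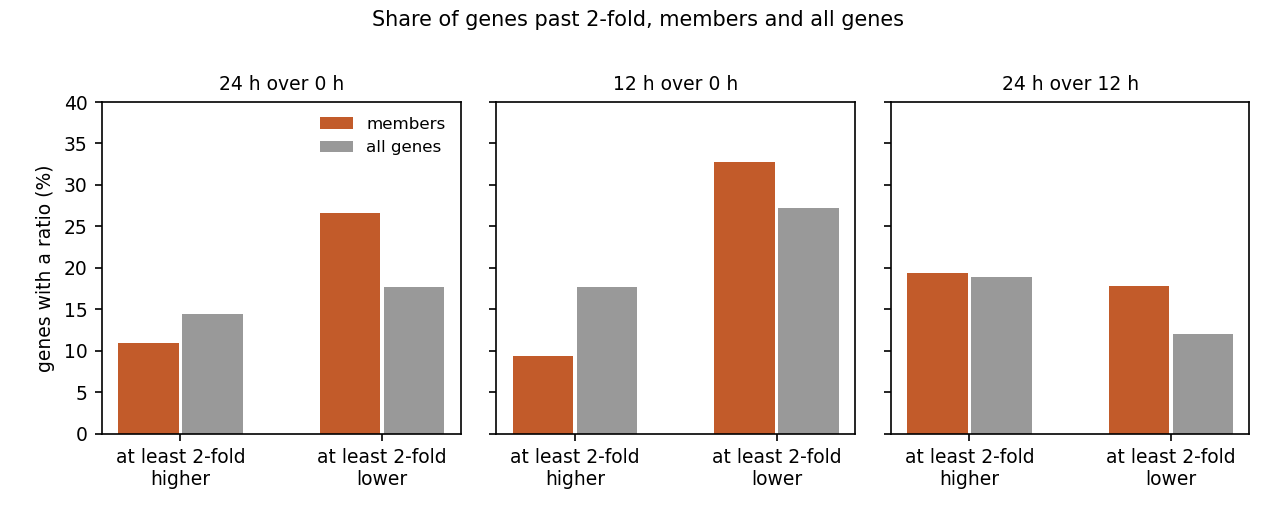
Percent of genes with a ratio that lay 2-fold or more higher or lower (vertical axis) in each comparison, members in orange beside all genes in grey, members included. In 24 h over 0 h 26.6% of members and 17.7% of all genes lay that far lower, and 10.9% and 14.5% that far higher.

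Members with several probe sets show how far 1 gene's ratios can part. There were 8 members for 24 h over 0 h that had a second probe set above the floor on both arrays, and in 4 of them, Cdk14, Cdk5rap3, Kif20a and Plk1, not every set gave the same direction. For 12 h over 0 h it was 2 of 6, Mki67 and Plk1, and for 24 h over 12 h 3 of 6, Ccnd1, Mki67 and Plk1. Of the 24 members past 2-fold for 24 h over 0 h, Cdk14 alone had a second set above the floor on both arrays.

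**Figure D5:**
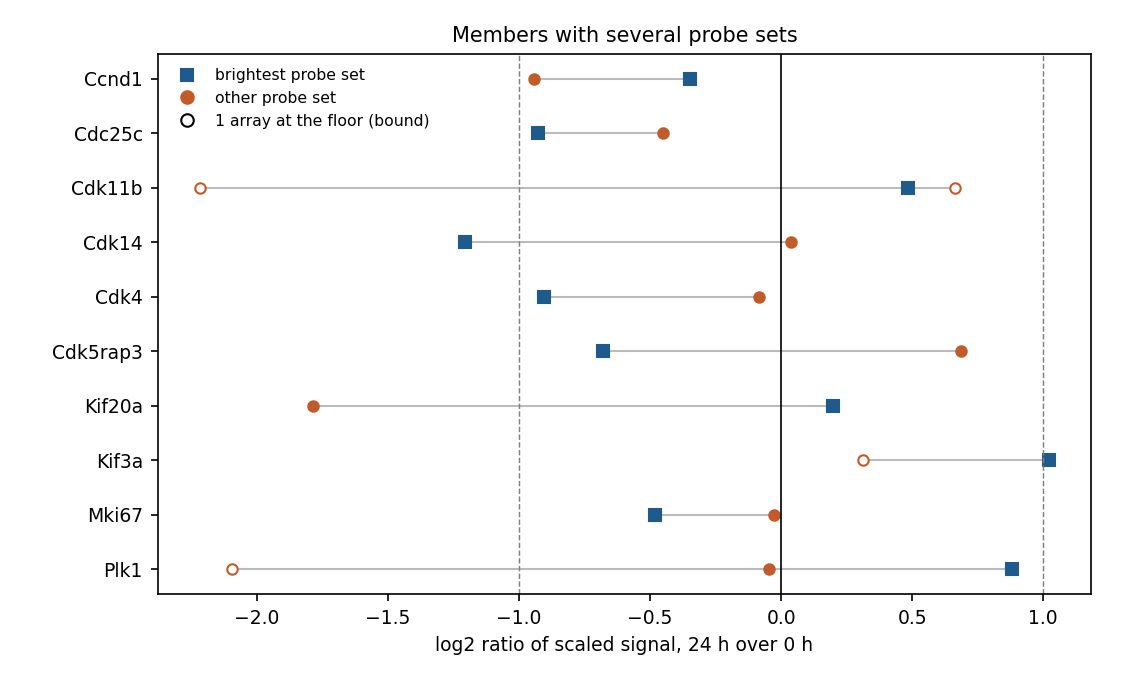
Log2 ratio of scaled signal for 24 h over 0 h (horizontal axis) of each probe set of the 10 members with 2 or more probe sets above the floor at 0 h or 24 h. Squares are the brightest set, circles other sets, open marks are bounds, and dashed lines mark 2-fold: the sets of Plk1 lie at 0.88, -0.05 and -2.09.

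Cell cycle genes outside the members were read from lists chosen by function. Of 24 mitosis and checkpoint genes with a ratio, 7 lay past 2-fold on the low side and 0 on the high side for 24 h over 0 h, beside 17.7% and 14.5% of all genes. The count was 16 lower and 0 higher with values as deposited, beside 49.35% and 4.5% of all genes. After median centring it was 5 lower and 1 higher, beside 14.17% and 17.65%. Their median log2 ratio was -0.54, against -0.08 for all genes. Rad21, the cohesin subunit cut at anaphase, had 614, 417 and 133 at 0, 12 and 24 h and was 4.62-fold lower at 24 h than at 0 h, and Nusap1, a spindle protein, had 229, 266 and 85.5 and was 2.68-fold lower. Stag1, another cohesin subunit, was 2.56-fold lower, and Birc5, or survivin, 2.38-fold lower. Of 9 subunits of the anaphase promoting complex, 0 passed 2-fold for 24 h over 0 h. With values as deposited 8 were lower by that much, beside 49.35% of all genes. Anapc5 among them had 712, 101 and 445, whereas Cdc16 was highest at 12 h, with 133, 308 and 247. Of 8 E2F and retinoblastoma genes with a ratio 1, Rbl1, a relative of the retinoblastoma protein, was 2.19-fold higher, with 35.0, 131 and 76.7, and 0 were as much lower. Over all genes 14.5% lay that far higher and 17.7% that far lower. With values as deposited 0 of these E2F and retinoblastoma genes were higher and 5 lower, beside 4.5% and 49.35% of all genes.

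Cdk inhibitors had 3 of 6 genes with a ratio past 2-fold on the high side and 1, a bound, on the low side for 24 h over 0 h. Over all genes 14.5% lay that far higher and 17.7% that far lower. Cdkn1a, or p21, had 15.2, 72.7 and 466 at 0, 12 and 24 h, 30.8-fold higher at 24 h than at 0 h on a 0 h signal near the floor. Cdkn2d, an inhibitor of Cdk4 and Cdk6, had 32.5, 82.8 and 159.7, 4.92-fold higher at 24 h than at 0 h, while Cdkn1c, or p57, had 1172, 2662 and 3679, 3.14-fold higher. Cdkn3, a phosphatase that acts on Cdks, had 49.2, 21.3 and 1.76, at least 3.63-fold lower at 24 h than at 0 h. Of 8 cyclins outside the members, 2 lay past 2-fold on the high side and 1 on the low side for 24 h over 0 h, beside the same 14.5% and 17.7%. Ccni had 181, 2224 and 1098, 6.06-fold higher at 24 h than at 0 h, Ccng2 187, 715 and 701, 3.75-fold higher, and Ccnc, the cyclin of Cdk8, 52.0, 44.8 and 19.5, 2.66-fold lower. With values as deposited the median log2 ratio for 24 h over 0 h changed sign for the inhibitors, 0.88 against -0.11, and for these cyclins, 0.16 against -0.84.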

How the data were processed

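The deposited values are linear intensities on an Affymetrix array, with no negative value and no detection call beside them. Analysis by the authors used Microarray Suite 5.0 and GeneSpring 6.0, per the labels, which do not say which wrote these values or whether arrays had been scaled. RNA was amplified with RiboAmp and labelled with the ENZO kit, per the labels' protocols. Of 12422 probe sets other than 66 controls, 10833 name 1 gene, and a symbol check through RefSeq left the choice of members as it was. From the deposited intensities each array was scaled to the geometric mean of the 2% trimmed means, floored at the pooled 40th percentile and taken to log2, with numpy 2.4.6 and pandas 2.3.3. A gene is represented by its brightest probe set. In 7 members, Cdc25c, Kif5a, Kif20a, Kif22, Nek4, Plk1 and Plk3, that set has a suffix taken as a mark of possible cross-hybridization. Genes were counted by a fold of 2, without a test, since each time had 1 array. Role groups, gene lists and members were chosen with earlier results of these data known. All members may be named, and of the other cell cycle lists up to 4 genes with the largest ratio for 24 h over 0 h. The cell type markers named above did not follow that rule and were picked after the values were seen. Simulated data served to check the code, and that check does not measure the error of the 2-fold counts given here.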

Additional observations from a re-analysis of the deposited data

How the results depend on the processing

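Counts of members past 2-fold depended on scaling and floor. The 8 alternative settings turned no member's ratio past 2-fold to the opposite sign, but most of them could hardly do so. Scaling each array by 1 factor shifts all ratios of a comparison alike, and another floor only shrinks or extends a ratio. Second probe sets of the same gene did differ in direction, as given above. Single genes of the other lists were not recomputed. Values as deposited left 40 of 67 members with a ratio at least 2-fold lower for 24 h over 0 h. For 12 h over 0 h it was 32 of 67. Over all genes 49.35% and 44.82% lay as far lower. For 24 h over 12 h 6 of 59 were as far higher, beside 12.02% of all genes. Median centring and quantile normalization gave 12 and 11 higher members for 12 h over 0 h, beside 26.17% and 21.91% of all genes. The floor at the 60th percentile left 11 lower members for 24 h over 0 h and 13 for 12 h over 0 h. Of all genes 14.91% and 23.87% lay as far lower, and 56 and 57 members had a ratio. Of members past 2-fold for 24 h over 0 h, the share that was higher was 29.2% as reported, 11.1% as deposited and 39.1% after median centring. For 12 h over 0 h it was 22.2%, against 46.2% and 37.9% after median centring and quantile normalization, and for 24 h over 12 h 52.2%, against 31.6% as deposited and 38.1% after median centring. The difference between the members' and all genes' median log2 ratio for 24 h over 0 h was -0.47 after quantile normalization. For 24 h over 12 h it was 0.074 after median centring and with probe sets averaged, -0.16 with the floor at the 20th percentile and -0.23 with it at the 60th. The cause was not tested. At least 2-fold under all 8 alternatives for 24 h over 0 h were 4 of 7 higher members and 8 of 17 lower ones: Cks1b, Cks2, Cdk5, Cenpb, Cenpc1, Kif2a, Kif2c and Kif5b. A member with 1 probe set, without a suffix, kept its ratio under all settings but scaling and floor. Averaging in probe sets at the floor, as for Bub1, Cdk2 and Cenpv, shrinks a ratio by construction. Counting each probe set by itself, added after the data were seen, gave 7 higher and 20 lower for 24 h over 0 h. That was of 77 probe sets with a ratio, and the share over all probe sets was not computed. No paired analysis was possible because each time point had 1 array, and none could be left out.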
